A study of Mus musculus with 4 samples.

Results

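The genes described here are 10 Eph receptors and ephrins of the mouse, compared between Cdx2+/-Cdx4-/- mutant and wildtype embryos in the tissue at the rear of the body axis. They are the receptors Epha1, Epha2, Epha4, Epha7, Ephb2 and Ephb3 and the ligands Efna1, Efna5, Efnb1 and Efnb2. They were chosen by gene name and not by their values, and 15 of the 41174 probes on the array carry one of these names. All 10 genes had at least 1 probe bright enough to test, among 14843 genes tested.

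Eph receptors are receptor tyrosine kinases whose ligands, the ephrins, are also held in the cell membrane, so that they signal where cells touch and often in both directions. A-type ephrins hang on a lipid anchor and B-type ephrins span the membrane, and each class binds mainly receptors of the same letter. In the early embryo they are known for cell sorting and repulsion at boundaries, among them the borders of forming somites, the hindbrain segments and the division of arteries from veins.

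Cdx2 and Cdx4 encode caudal-type homeodomain factors that support the outgrowth of the posterior body. The mutants carried 1 altered copy of Cdx2 and no intact Cdx4, and the comparison embryos were wildtype at both. Embryos had 5 or 6 somites, the tissue lay behind the last somite boundary, and material of 10 embryos of each genotype was pooled. Strain, and how the alleles were made, are not given in the sources used here. Each of 4 two-colour arrays on 1 slide held both genotypes, and the labels name them as 2 replicates, each with a dye swap. Arrays 1 and 2 below are those of labelled replicate 1, arrays 3 and 4 those of labelled replicate 2, and the even numbers are the dye swaps. Separate pools for the replicates are not mentioned, so the errors measure the spread between hybridisations, which may be technical.

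The direction of every ratio is limited by a conflict in the labels. By the labels, Cdx4 had log2 mutant over wildtype ratios of -2.59 and -2.42 on arrays 1 and 4 but of 2.11 and 2.82 on arrays 2 and 3. In Cy5 over Cy3, arrays 1 and 2 correlated with arrays 3 and 4 at r = -0.39 to -0.30 over all probes (which are not independent replicates), although by the labels the pairs 1 with 3 and 2 with 4 share a dye orientation. The arrays were therefore all turned to give a negative Cdx4 ratio, and the values are called aligned ratios. Cdx2 then had aligned ratios of -0.77, -0.50, -0.45 and -0.45 on arrays 1 to 4. "Higher" and "lower" below follow this alignment, which is mutant against wildtype by the labels of arrays 1 and 4. By the labels of arrays 2 and 3 every aligned sign turns, and higher and lower change places throughout.

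Because the mutation removes a DNA-binding factor, the upstream sequences of the members are shown before their expression. The 250 bases before the RefSeq start (GRCm38.p6) were searched on both strands for TTTAT, the core of the site that Cdx factors bind. All 10 members had such a sequence. The core occurred in 2 of them, Epha1 and Efnb2, against 37.3% of all 32851 windows of this length. Epha1 and Efnb2 are printed as the members with a match, and Ephb3, without one, as the member whose aligned ratio was farthest from 0. Each runs 5′ to 3′ along its gene's strand, with the core in capitals.
Epha1, chr6:42373269-42373518, minus strand: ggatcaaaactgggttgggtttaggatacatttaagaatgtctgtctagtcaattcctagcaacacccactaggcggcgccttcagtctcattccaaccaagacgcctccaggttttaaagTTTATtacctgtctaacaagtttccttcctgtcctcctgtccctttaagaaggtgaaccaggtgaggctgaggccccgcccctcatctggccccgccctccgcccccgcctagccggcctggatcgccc
Efnb2, chr8:8661243-8661492, minus strand: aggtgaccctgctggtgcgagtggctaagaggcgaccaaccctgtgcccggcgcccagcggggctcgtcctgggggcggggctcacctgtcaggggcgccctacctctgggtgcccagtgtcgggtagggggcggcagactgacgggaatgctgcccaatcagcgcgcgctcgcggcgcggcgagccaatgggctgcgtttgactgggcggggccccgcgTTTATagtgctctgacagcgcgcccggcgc
Ephb3, chr16:21204545-21204794, plus strand: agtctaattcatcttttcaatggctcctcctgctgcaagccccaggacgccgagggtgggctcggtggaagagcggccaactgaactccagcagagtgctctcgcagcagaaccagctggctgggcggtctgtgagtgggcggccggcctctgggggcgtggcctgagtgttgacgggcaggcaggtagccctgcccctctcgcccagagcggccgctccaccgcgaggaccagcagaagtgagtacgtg
The Epha1 match begins 129 bases before the start. The Efnb2 match begins 30 bases before it and overlaps the letters TATA, which 34% of all windows and no other member's window hold. A match is a string of letters and not a measured site, and binding was not measured here.

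None of the 10 members passed the test on aligned ratios. In limma, with the 2 arrays of a labelled replicate averaged (n = 2 values), 0 of 10 had a Benjamini-Hochberg adjusted p under 0.05, and 1 had an unadjusted p under 0.05. Of all genes tested, 7.72% passed, 3.28% higher and 4.44% lower. The members' aligned means ran from -0.16 to 0.27 with a median of 0.04, against a median of 0.01 over all genes. Their median distance from 0 was 0.09, against 0.10 over all genes. The farthest 95% limit of any member in this fit, that of Ephb3, corresponds to 1.39-fold. The intervals rest on an error pooled over genes and do not cover the spread of single arrays: that of Epha1 ran from -0.09 to 0.32, while its arrays ran from -0.39 to 0.65. In pooled tissue, fewer cells that express a gene and less RNA per cell cannot be told apart.

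The count depended on which arrays were averaged as replicates. When array 1 was averaged with 3 and array 2 with 4, called the exchange pairing, limma's adjusted p (n = 2 values) passed for 4 of 10 members and for 42.1% of all genes. Epha7 and Ephb3 were then higher, beside 22.6% of all genes, and Epha2 and Ephb2 lower, beside 19.6%. Averaging 1 with 4 and 2 with 3 called the same 4 members in the same directions, with 55.4% of all genes passing (30.1% higher and 25.3% lower). The means are identical in these fits and the error differs. The median standard error over genes was 0.10 with the labelled numbers and 0.05 in the exchange pairing. In the exchange pairing limma gave every gene the same error, so a gene's own spread did not enter its p-value. After alignment, arrays 1 and 2 share 1 dye orientation, and arrays 3 and 4 the other. Aligned ratios of tested probes, which are not independent, correlated at r = 0.82 and 0.87 within these pairs, against 0.38 to 0.44 across them. The spread between labelled replicates thus includes any dye difference, while the other pairings average both orientations within each value. Which pairing matches the hybridisations cannot be told from the labels.

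The sign of some ratios also depended on the scaling. With each array centred on its median in place of loess, the median of all genes lay at 0.28, all 10 members were above 0, and 6 genes of all tested passed higher and 2 lower. Relative to that median, Ephb3 lay at 0.38 and Ephb2 at -0.07, with the signs they had after loess. Epha7 (-0.06) and Efnb1 (0.16) changed sign, and the other members kept theirs. The ratios below are those after loess.

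**Figure D1:**
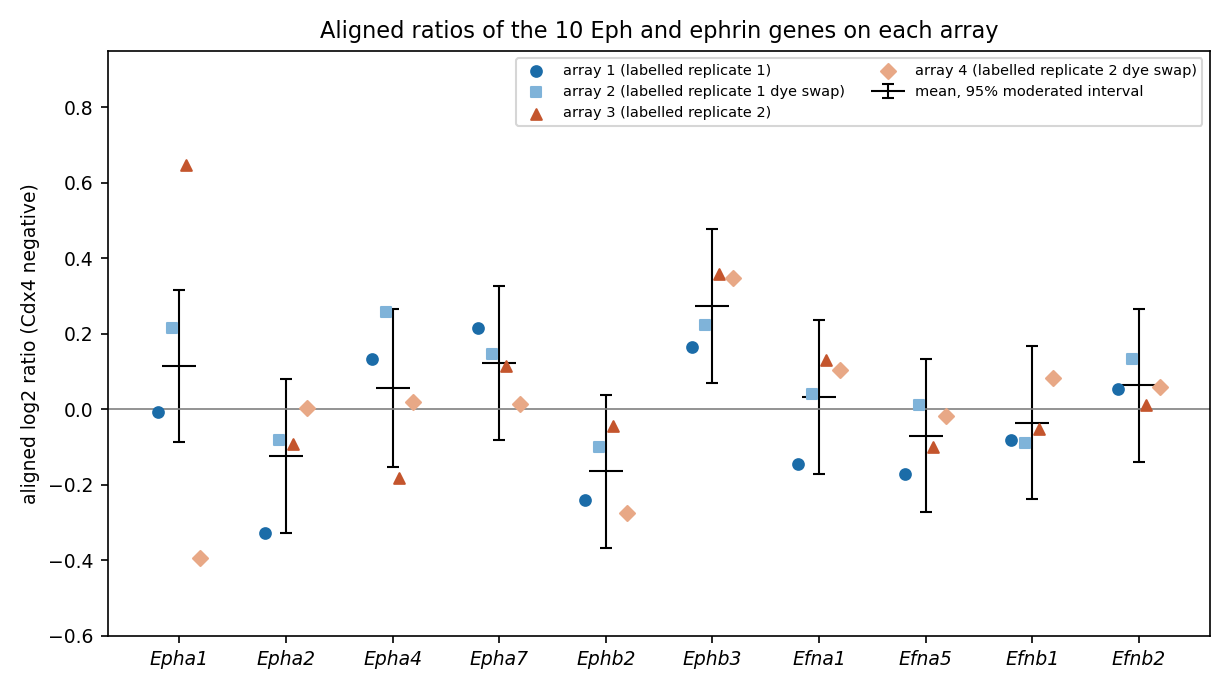
Aligned log2 ratio (vertical axis, mutant over wildtype after turning each array to a negative Cdx4 ratio) of each of the 10 members, with a point for each of the 4 arrays. Horizontal bars give the mean and vertical bars its 95% moderated interval from limma on 2 replicate values. Ephb3 lies above 0 on all 4 arrays, and the points of Epha1 run from -0.39 to 0.65.

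Ephb3, a receptor for B-type ephrins, had the largest aligned ratio of the members. Its probe lies on chromosome 16 at 21136935 to 21136994 (mm8, plus strand). Its log2 signal was 11.04, 10.96, 11.14 and 11.19 in the mutant channel of arrays 1 to 4, and 10.87, 10.74, 10.78 and 10.84 in the wildtype channel. After quantile scaling between arrays, every mutant value exceeded every wildtype value. How many of all genes separate in this way was not counted, while 24.9% were positive on all 4 aligned arrays. The aligned ratios of Ephb3 were 0.17, 0.22, 0.36 and 0.35, with a mean of 0.27 ± 0.10 (moderated SE, n = 2 values), or 1.21-fold. Limma gave an adjusted p of 0.101 (n = 2 values). The unadjusted 95% interval ran from 0.07 to 0.48, and Ephb3 is the member with an unadjusted p under 0.05. Of all genes tested, 10.7% lay farther from 0. Its adjusted p was 5.7e-07 in the exchange pairing (limma, n = 2 values), where the error is the same for every gene.

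Ephb2, a B-class receptor with the same kind of ligands, had aligned ratios of the opposite sign. On its brightest probe (chromosome 4, 135926763 to 135926822, minus strand) the mutant channel had log2 signals of 10.54, 10.67, 10.67 and 10.37, and the wildtype channel 10.78, 10.77, 10.71 and 10.65. The mutant channel was lower on each array, although the ranges of the channels overlapped. The ratios were -0.24, -0.10, -0.04 and -0.27, with a mean of -0.16 ± 0.10 and an adjusted p of 0.391 in limma (n = 2 values), against 0.00403 in the exchange pairing. The other Ephb2 probe, whose mm8 positions span 135929637 to 135931034, did not show this. That probe was tested but much dimmer, with a mean log2 intensity of 7.68 against 10.64 for the brightest probe. The dimmer probe had -0.08, 0.02, -0.14 and 0.15, with a mean of -0.01. Averaged over both probes, Ephb2 did not pass in the exchange pairing either.

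Set side by side on the same arrays, the aligned ratio of Ephb3 exceeded that of Ephb2 by 0.41, 0.32, 0.40 and 0.62, a mean of 0.44 (SD 0.13, 4 arrays). With the sign turned, Ephb2 exceeds Ephb3 by the same amounts. The pair was chosen for its values, so the difference was not tested.

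The A-class receptors were closer to 0. Epha7, which takes part in guidance and tissue folding in the nervous system, had 0.22, 0.15, 0.12 and 0.013 on its tested probe (chromosome 4, 29132707 to 29132766, plus strand). It was positive on each array, with a mean of 0.12 ± 0.10 and an adjusted p of 0.574 in limma (n = 2 values). In the authors' deposited series table the same probe averaged 0.34 after conversion to log2, and relative to the median of all genes it lay at -0.06 under median centring. A further Epha7 probe was not well above background in either genotype on any array.

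Epha2, a receptor best known from epithelia and from the early embryo, had -0.33, -0.08, -0.09 and 0.0035 (chromosome 4, 140601300 to 140601359, plus strand). Its values lay near 0 on arrays 2 to 4 and lower on array 1, and the mean was -0.12 ± 0.10 with an adjusted p of 0.568 (limma, n = 2 values). Without array 1 the mean was -0.06.

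Epha4, a receptor of both ephrin classes that marks the front of the forming somite and hindbrain segments, had 0.13, 0.26, -0.18 and 0.02 on its brightest probe (chromosome 1, 77251261 to 77251320, minus strand). The labelled replicates opposed each other, with means of 0.20 and -0.08. A further Epha4 probe at 77252320 to 77252379 was also bright enough to test, and lay at a mean of 0.03. Its values were -0.0061, 0.13, -0.0071 and 0.012. The overall Epha4 mean on the brightest probe was 0.06 ± 0.10, with an adjusted p of 0.853 in limma (n = 2 values).

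Epha1, an A-class receptor of epithelia, was the member on which the arrays differed most. Its probe lies on chromosome 6 at 42288191 to 42288250 (minus strand). The mutant channel of the alignment had log2 signals of 11.73, 11.84, 12.19 and 10.83, and the wildtype channel 11.73, 11.62, 11.55 and 11.23. The aligned ratios were -0.0081, 0.22, 0.65 and -0.39, which give both the highest and the lowest value of any member on any array. Their SD of 0.43 was exceeded by 0.903% of all genes tested. The mean was 0.11 ± 0.10, with an adjusted p of 0.605 (limma, n = 2 values).

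Read by the labels as they stand, the same Epha1 signals all point one way. The mutant over wildtype ratios as labelled were -0.0081, -0.22, -0.65 and -0.39. They are negative on each of the 4 arrays, and 1.47% of genes had 1 sign on all 4 when read as labelled. The labelled replicates averaged -0.11 and -0.52. Fitted as labelled, with 0.104% of 14446 genes called (0.09% lower), Epha1 was the 1 member of 10 that passed in limma, at -0.32 with an adjusted p of 7.78e-07 (n = 2 values). Its standard error of 0.05 in that fit is shared over genes and is smaller than the gap between its own replicate values. The other 9 members lay between -0.09 and 0.04 as labelled. Cdx4 itself had an as-labelled mean of -0.02, since its arrays cancelled. If the alignment holds, this mean sets arrays 1 and 4 against arrays 2 and 3, and a genotype difference cancels for any gene. The as-labelled call of Epha1 is then no test of mutant against wildtype. On arrays 1 and 4 alone, whose labels and Cdx4 values go together, Epha1 averaged -0.20 (limma adjusted p = 0.369, n = 2 values). On arrays 2 and 3 alone it averaged 0.43 when aligned (limma adjusted p = 0.0345, n = 2 values). By the labels of those arrays this is lower in the mutant, but the same labels put Cdx4 higher in the mutant. The split was added after seeing the data, and arrays 2 and 3 hold the highest aligned values of Epha1. The p-values of these array pairs are therefore no independent test of Epha1.

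**Figure D2:**
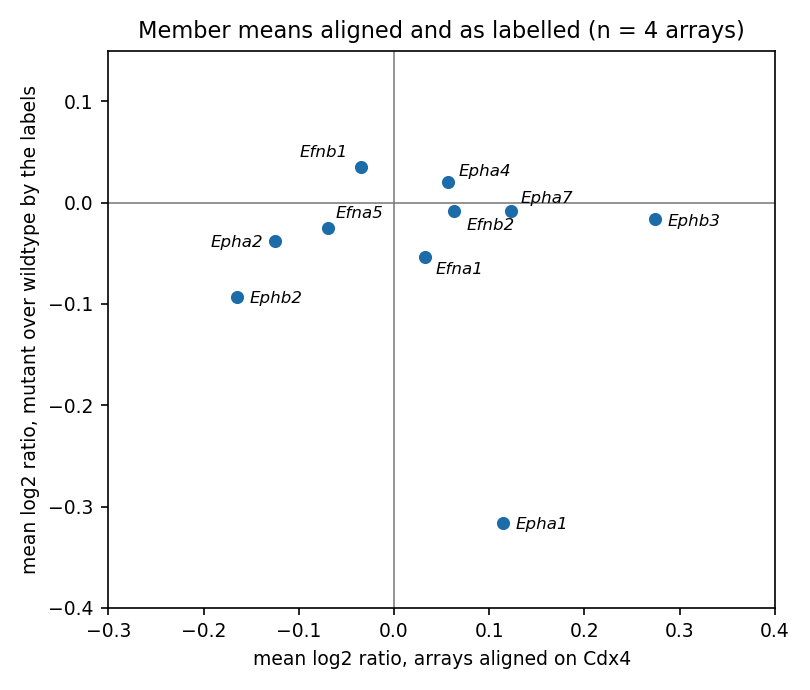
Mean log2 ratio of the 10 members over 4 arrays, aligned on Cdx4 (horizontal axis) and as mutant over wildtype by the labels (vertical axis), 1 point per gene. Epha1 lies at 0.11 and -0.32, below the other members, which stay between -0.09 and 0.04 on the vertical axis.

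The 4 ligands had aligned means from -0.07 to 0.06, against -0.16 to 0.27 for the 6 receptors. Efna1, a ligand of A-class receptors, had -0.15, 0.04, 0.13 and 0.10 (chromosome 3, 89358176 to 89358235, minus strand). Array 1 was below 0 and the others above, and the mean was 0.03 ± 0.10. Efna5, an A-type ephrin with known roles in axon guidance, had -0.17, 0.012, -0.10 and -0.02 on its tested probe (chromosome 17, 62290290 to 62290349, minus strand). The mean was -0.07 ± 0.10, with 1 array above 0.

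Efnb1, the X-linked B-type ephrin, had -0.08, -0.09, -0.05 and 0.08 (chromosome X, 95350885 to 95350944, plus strand), with a mean of -0.04 ± 0.10. Efnb2, which marks arteries and the rear of forming somites, had 0.05, 0.13, 0.00996 and 0.06 on its tested probe (chromosome 8, 8618149 to 8618208, minus strand). It was positive on each array, with a mean of 0.06 ± 0.10. Limma's adjusted p for the 4 ligands (n = 2 values) ranged from 0.797 to 0.924, and in the exchange pairing from 0.273 to 0.645. The widest 95% limit among them corresponds to 1.21-fold. Further probes of Efna5 and Efnb2 were not tested: each was well above background on 2 arrays in the mutant channel and 3 in the wildtype channel.

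Over the members, 4 of 10 had 1 sign on all 4 aligned arrays, against 44.5% of all genes. These were Ephb3, Epha7 and Efnb2 above 0 (24.9% of all genes) and Ephb2 below it (19.6%).

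The other members of the family gave 1 call. Of 12 further Eph and ephrin genes, 8 were bright enough to test, and Epha3, Epha6, Epha8 and Epha10 were not well above background on all 4 arrays in either genotype. Epha5, an A-class receptor of the developing nervous system, was lower on 1 of its 3 probes (chromosome 5, 85141953 to 85142012). After quantile scaling between arrays, the log2 signals of that probe were 8.49, 8.56, 8.57 and 8.55 in the mutant channel. They were 9.03, 8.89, 9.11 and 8.97 in the wildtype channel, with no overlap. How many of all genes separate in this way was not counted, while 19.6% were negative on all 4 aligned arrays. The aligned ratios of Epha5 were -0.54, -0.33, -0.55 and -0.42, a mean of -0.46 ± 0.10 (1.38-fold lower). Limma gave an adjusted p of 0.00312 (n = 2 values). With the sign turned Epha5 is higher by the same amount. In the authors' deposited series table the same probe averaged -0.76 when aligned and converted to log2, and Epha5 also passed there. The other Epha5 probes were not bright enough to test, each with a mean of -0.06, so the call rests on 1 probe. It was also lost without array 1, when 0 of the 8 passed, although its ratios on the other arrays lay between -0.55 and -0.33. Under median centring it did not pass, at -0.28, which is -0.56 relative to the median of all genes.

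The remaining 7 of these genes did not pass. Efna4, Efna3 and Efnb3, all ligands, were positive on each array, as were 24.9% of all genes, with means of 0.20, 0.12 and 0.19. The probes of Efna1, Efna3 and Efna4 neighbour each other on chromosome 3 between 89358176 and 89420244 (mm8). Ephb1 had a mean of -0.13, and Ephb4, the receptor of Efnb2 on veins, had 0.02. Ephb6, which lacks an active kinase, had 0.06, and Efna2 had 0.0067. In the exchange pairing 5 of the 8 passed, Efna3, Efna4 and Efnb3 higher and Epha5 and Ephb1 lower, beside the 42.1% of all genes.

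Of 44 genes that carry or limit Eph and ephrin signals inside the cell, 42 were tested and 3 passed, 1 higher and 2 lower, beside the 7.72% of all genes that passed. The list's median was -0.03. Pak1, a kinase driven by Rac and Cdc42, had 0.20, 0.28, 0.61 and 0.62, a mean of 0.43 ± 0.11 with an adjusted p of 0.00922 (limma, n = 2 values). A further Pak1 probe averaged 0.47. Rock1, a kinase that promotes contraction of the actin cytoskeleton, had -0.49, -0.31, -0.42 and -0.24, a mean of -0.36 ± 0.10 with an adjusted p of 0.0189 (limma, n = 2 values). Its other probes both averaged -0.16. Pak1 and Rock1 each had 1 sign on all 4 arrays, as had 44.5% of all genes. With the sign turned Pak1 is lower and Rock1 higher. Under median centring neither passed, with Pak1 at 0.76 and Rock1 at 0.04, or 0.48 and -0.24 relative to the median of all genes. Neither passed without array 1, 2 or 3, when 1 of the 42 effectors did.

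**Figure D3:**
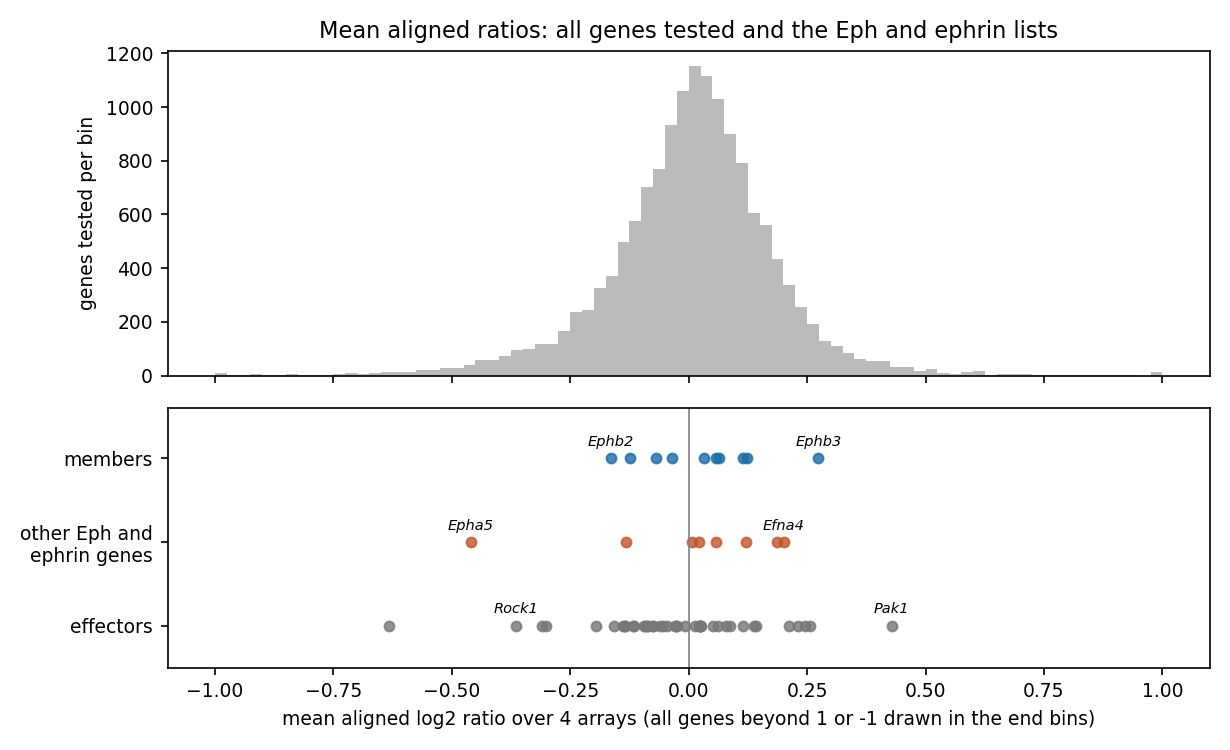
Upper panel: number of tested genes (vertical axis) by mean aligned log2 ratio (horizontal axis). Lower panel: the 10 members, the 8 other tested Eph and ephrin genes and the 42 tested effectors on the same axis, 1 point per gene. The members lie between -0.16 and 0.27, while Epha5 (-0.46), Rock1 (-0.36) and Pak1 (0.43) lie farther out.

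The tissue was checked with marker genes of the cell types it could hold, several of which differed between the genotypes. All 11 posterior axial markers were bright enough to test, and 2 were higher and 2 lower. Cdx2, itself altered in the mutants, is in this list and is 1 of the 2 lower. The log2 ratios of the sums of these 11 markers, Cdx2 included, ran from -0.11 to 0.11 over arrays. The anterior neural markers Otx2, Six3, Hesx1 and En1 were not well above background on any array, whereas all 4 heart markers were measured, with none called. All 9 visceral endoderm markers were lower, with log2 ratios of their sums from -1.33 to -1.16. All 4 gut endoderm markers were tested and none was called (sum -0.05 to 0.10). The same held for all 5 markers of allantois and lateral plate (sum -0.24 to -0.0020). All 3 measured primitive erythroid markers were higher (1.14 to 1.38), with Gata1 and Klf1 well above background on some arrays only and so not tested. Endothelial markers were lower in 4 of 9 and higher in none (sum -0.67 to -0.51), somite markers higher in 3 of 6 (0.45 to 0.53) and neural plate markers higher in 3 of 4 tested (0.55 to 0.73). The part of these marker shifts in the ratios of the Eph and ephrin genes was not tested.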

How the data were processed

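The arrays were read with Agilent Feature Extraction in version 9.5.3 (the submitters' processing notes name it). The deposited scanner files hold spot intensities in Cy3 and Cy5 (mean signal, median local background and a background-subtracted, dye-normalised signal), the log10 of Cy5 divided by Cy3 and, per the file headers, a p-value of that quotient. In the authors' series table are the same log10 ratios, turned on the labelled dye swaps (equal within 1e-05 for 100% of features, median 0 in each column). Its scale and centring are thus known, and its direction carries the conflict of the labels.

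From the intensities, log2 ratios were computed here in limma 3.58.1 (R 4.3.3) with normexp (offset 50) and loess within each array, control spots at weight 0. For the log2 signals of single channels, mean intensities were then quantile-scaled between arrays (limma's Aquantile method), which leaves the ratios as they were. Outlier spots (103 to 167 per array) were left out and saturated ones (0 to 7 per channel) kept. The share of spots well above background was 50.6% to 56.4% for Cy3 and 58.9% to 64.9% for Cy5. The number of arrays limits the precision. A probe was tested if well above background on all 4 arrays in 1 genotype's channel by the alignment; 59 of 21860 such probes with an outlier spot on an array were left out. A gene took its brightest tested probe. Symbols were updated through RefSeq (GRCm38.p6) for 23374 probes by accession and 2919 by an older symbol; 6733 were current and 8148 kept the file's name. The probes of the 10 members were found by the gene name in the scanner files, which equalled the updated symbol for each. Probe positions are those of the files (mm8); exon or UTR was not assigned, since no annotation of that build was used.

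The aligned ratios of each labelled replicate were averaged, and the 2 values fitted with lmFit and eBayes (1 residual and 25.7 prior degrees of freedom), with Benjamini-Hochberg adjustment over all genes and a threshold of 0.05. In the exchange pairing and the fit as labelled the prior degrees of freedom were infinite, so all genes had the same error. Errors after ± are moderated standard errors on the log2 scale, largely pooled over genes. The script was tested on simulated data. Alternatives were 2 other pairings, the labels as they stand, median centring, the authors' table, the scanner's processed signals, normexp without offset, no filter on dim probes, the mean of a gene's probes, and leaving out arrays or replicates; those that join the exchange pairing to another choice, or keep arrays 1 and 4 or arrays 2 and 3 only, were added after seeing the data. Named are all members with their probes, the tested genes of the other Eph and ephrin list, effectors that passed (1 of them is not reported here), and Cdx4 and Cdx2; markers are given as counts and sums. The members and lists were chosen with earlier results of these data known.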

Additional observations from a re-analysis of the deposited data

Results flagged for a closer look

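Each probe of the Eph and ephrin genes was examined for an array that stands apart from the other 3, in 33 groups of 4 values, of which chance alone would flag about 1 in 20. An Efna5 probe (A_51_P218009), too dim to test, had an aligned log2 ratio of 0.15 on array 4 against -0.02 to 0.0094 on the others. The less bright Epha4 probe (A_51_P221762) had 0.13 on array 2 against -0.0071 to 0.012 on the others. Neither probe represents its gene in the test, and the other probe of each gene did not stand apart on that array in the same way: Efna5 had -0.02 on array 4, and Epha4 had 0.26 on array 2 beside 0.13 on array 1.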

How the results depend on the processing

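Of 200 values of the members under alternatives, 161 kept their sign and did not newly pass, 18 newly passed and 22 changed sign (Epha1 as labelled did both). Of the sign changes, 8 fell under median centring, which moves the median of all genes to 0.28. The cause of each change was not tested.

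Counts of calls among members, other Eph and ephrin genes and effectors were 0, 1 and 3. They became 4, 5 and 17 in the exchange pairing, 4, 5 and 22 in the third, and 1, 0 and 0 as labelled. Within the exchange pairing they were 4, 5 and 17 with the mean of a gene's probes (Epha1 then passing and Ephb2 not), 4, 6 and 16 with the authors' table, and 0, 0 and 0 with median centring. With the labelled numbers they were 0, 0 and 0 under median centring or with no filter on dim probes. Arrays 1 and 4 alone gave 0, 1 and 1, and arrays 2 and 3 alone 1, 1 and 2. Leaving out 1 array gave 0 members throughout, 0 to 1 other family genes and 1 to 3 effectors.

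Over all genes, 487 were called higher and 659 lower. These counts were 3350 and 2903 in the exchange pairing, 4467 and 3755 in the third, 2 and 13 as labelled, 6 and 2 under median centring, 10 and 4 with no filter, and 636 and 1057 with the authors' table. Without array 1 they were 138 and 116. Within the exchange pairing they were 3327 and 2698 with the mean of a gene's probes. They were 3755 and 3436 there with the authors' table, and 1 and 0 with median centring. Arrays 1 and 4 alone gave 242 and 388 of 14845 genes, and arrays 2 and 3 alone 280 and 325 of 14873.

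The signs of these members changed as labelled: Epha1 lay at -0.32, Efna1 at -0.054, Efnb1 at 0.035, Efnb2 at -0.0082, Epha7 at -0.0085 and Ephb3 at -0.017. Under median centring, in both pairings, Efna5 lay at 0.25, Efnb1 at 0.44, Epha2 at 0.25 and Ephb2 at 0.21. Relative to the median of all genes Efna5 (-0.03), Epha2 (-0.029) and Ephb2 (-0.07) kept their sign, while Efnb1 (0.16) and Epha7 (-0.06) did not. On arrays 1 and 4 alone Epha1 lay at -0.20, Efna1 at -0.021 and Efnb1 at 9.88e-06. Leaving out 1 array moved Epha1 between -0.15 (without array 3) and 0.37, and Efna1 between -0.01 and 0.08. Leaving out a labelled replicate, a value with no test, moved Efna1 between -0.052 and 0.12, Efnb1 between -0.09 and 0.015, and Epha4 between -0.08 and 0.20.

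Each array holds both genotypes, so the ratio within an array is already the paired value, and the replicate number was not fitted as a further block.

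The 4 hybridisations share 1 slide, and the labels do not settle which channel held the mutant on 2 of them. The standard errors and intervals printed for the members rest on the labelled replicate numbers, whose values differ in dye orientation after alignment.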

Other observations

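The scanner software gives its own p-value for each spot's ratio on each array. Over the 10 genes and 4 arrays, 2 of these 40 p-values were under 0.05, and both belong to Epha1. They were 0.00378 on array 3 and 0.0184 on array 4, the arrays on which its aligned ratios were 0.65 and -0.39. These p-values are computed per spot within an array and do not measure the spread between samples.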
